A study of Mus musculus with 47 samples.

Results

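The genes described here encode 6 transcription factors and 2 splicing factors that maintain epithelial identity: the grainyhead factors Grhl1 and Grhl2, the zinc finger repressors Ovol1 and Ovol2, the ETS factors Elf3 and Ehf, and the RNA-binding proteins Esrp1 and Esrp2. They were chosen by name, as 8 of 21887 protein-coding genes. Every ChIP-seq peak inside the gene span or within 10 kb of either side was taken from each of 32 peak lists, which gave 404 of 806216 peaks. A view of 50 kb to either side is given for some results. ChIP-seq finds stretches of DNA that an antibody enriches over input chromatin, and a peak is such a stretch. Fold enrichment and rank by significance are the authors' values for a peak, used to describe peaks within their own list, except for a filter on fold tried as an alternative.

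The cells were NMuMG, a mouse mammary gland epithelial line that loses epithelial character when given transforming growth factor β1 (TGFβ1). Pbrm1 KO cells lacked, by their label, PBRM1, a bromodomain subunit of the PBAF form of the SWI/SNF chromatin remodeller, and the labels do not say whether the line is 1 clone. The TGFβ1 dose was 5 ng/ml, given for 24 or 48 h, and cells at 0 h had none. The KO lists covered PHF10 (0 and 48 h), ATF3 (0, 24 and 48 h), FOSL2 and FOSB (0 and 48 h each). The control lists covered PHF10 and ATF3 (0, 24 and 48 h), FOSL2, FOSB and the histone marks H3K4me3, H3K4me1, H3K27ac, H3K14ac and H3K18ac (0 and 48 h each), and BRG1 (0 h). PHF10 belongs to PBAF too, BRG1 is the ATPase of SWI/SNF complexes, and ATF3, FOSL2 and FOSB are bZIP transcription factors. Groups had 1 library each, except that PHF10 was profiled in duplicate in untreated and 48 h control cells.

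Grainyhead factors open chromatin at enhancers of junction genes such as Cdh1 and hold epithelial enhancers ready for other factors. OVOL proteins repress Zeb1 and other drivers of the mesenchymal state, while ELF3 and EHF activate genes of secretory and barrier epithelia. ESRP1 and ESRP2 direct alternative splicing toward the epithelial isoforms of transcripts such as Fgfr2 and Cd44. H3K4me3 marks promoters in use or poised, H3K27ac marks active promoters and enhancers, and H3K4me1 marks enhancers and the flanks of promoters.

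In untreated control cells the 8 genes fell into 2 chromatin classes. Grhl1, Grhl2, Ovol1, Ovol2, Esrp1 and Esrp2 had H3K4me3, H3K27ac and PHF10 peaks in their windows, and Elf3 and Ehf had none of these. Base composition is shown for a promoter of each class because Grhl1 carried H3K4me3 at its start and Elf3 did not. The sequences are RefSeq's, on build GRCm38.p6 (mm10), written 5′ to 3′ of the gene, with each CG dinucleotide in capitals. The Grhl1 stretch is chr12:24572037-24572231 on the plus strand and has 195 bases. The Elf3 stretch is chr1:135258473-135258722 on the minus strand and has 250 bases ending at the base before the RefSeq start.
Grhl1: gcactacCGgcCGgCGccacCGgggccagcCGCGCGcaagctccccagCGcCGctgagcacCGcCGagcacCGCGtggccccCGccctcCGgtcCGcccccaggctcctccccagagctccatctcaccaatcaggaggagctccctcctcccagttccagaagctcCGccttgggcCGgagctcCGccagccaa
Elf3: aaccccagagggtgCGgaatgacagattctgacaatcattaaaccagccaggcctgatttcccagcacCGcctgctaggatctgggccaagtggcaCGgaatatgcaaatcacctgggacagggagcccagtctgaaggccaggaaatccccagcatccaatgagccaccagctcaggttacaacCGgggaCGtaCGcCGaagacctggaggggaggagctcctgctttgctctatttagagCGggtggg

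The Grhl1 stretch holds 19 CG dinucleotides and the longer Elf3 stretch holds 8. RefSeq starts were at hand for 3 of the 8 genes, with 2 starts for Grhl1. Over the full 250 bases before the start, the GC content was 75.6% at the first Grhl1 start, 65.2% at Ovol2, 57.2% at Elf3 and 52.0% at the second Grhl1 start, against a median of 52.4% over all promoters of the table. The count of CG dinucleotides was 27 at the first Grhl1 start, 20 at Ovol2, 8 at Elf3 and 0 at the second Grhl1 start, and the median over all promoters was 6.0. The second Grhl1 start, chr12:24580469-24580718, lay inside the gene span and overlapped no peak of any list. The first Grhl1 start and Ovol2 overlapped H3K4me3 and H3K27ac peaks at both times, PHF10 peaks in each of the 7 PHF10 lists, and ATF3 peaks at 48 h in KO and in control cells. These overlaps covered all 250 bases, with few exceptions. H3K27ac at 48 h covered 12 bases at Ovol2. PHF10 at 48 h covered 186 bases in KO cells and 36 in control replicate 2 at the first Grhl1 start. The Elf3 promoter overlapped a BRG1 peak in untreated control cells and PHF10 peaks at 48 h in KO and in both control libraries. It also overlapped an ATF3 peak at 48 h in KO cells only, over 26 of its bases.

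Motifs were searched on both strands of these 250 bases, as exact letters: TGANTCA (AP-1), TGACGTCA (CRE), CAGGTG (an E2 box, the kind that ZEB and SNAIL factors bind), AACCNGTT (grainyhead), CCGTTA (OVOL) and CGGAAG (ETS). The motifs are not parts of one another. The single match was an E2 box in the Elf3 promoter, its first base 140 bases before the start, visible above as its reverse complement cacctg. Of all promoters in the table, 17.2% hold CAGGTG, 13.6% CGGAAG, 6.75% TGANTCA, 2.18% CCGTTA, 1.79% AACCNGTT and 1.55% TGACGTCA.

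The lists differ greatly in length, and this sets how often any gene has a peak. PHF10 lists held 11285 to 158815 peaks and ATF3 lists 20 to 144513, with the 48 h KO list the longest of each, and the histone mark lists held 3453 to 35270. Read totals were not used here, so depth is unknown. Each count of genes is therefore set beside the share of all 21887 genes counted the same way, except for counts under a filter on −log10 q. Because windows grow with the gene, Grhl2 (span 130749 bases) can collect more peaks than Elf3 (4899 bases). No comparison had a test, since 1 library stood in at least 1 arm or the design was 2 against 2, where an exact two-sided permutation test cannot go below a p of 0.33. The labels do not state that libraries came from separate cultures. A peak called in part of the cells and a weaker one in all of them cannot be told apart. As a check of the cell type, 6 of 6 epithelial marker genes had H3K4me3 and H3K27ac peaks at 0 h, against 4 and 3 of 6 fibroblast, 4 and 2 of 4 endothelial and 2 and 1 of 4 blood markers. Of all genes 73.5% had H3K4me3 and 66.6% H3K27ac, so H3K4me3 did not separate epithelial from endothelial markers. ChIP lists hold no measure of PBRM1, so they do not check the knockout.

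**Figure D1:**
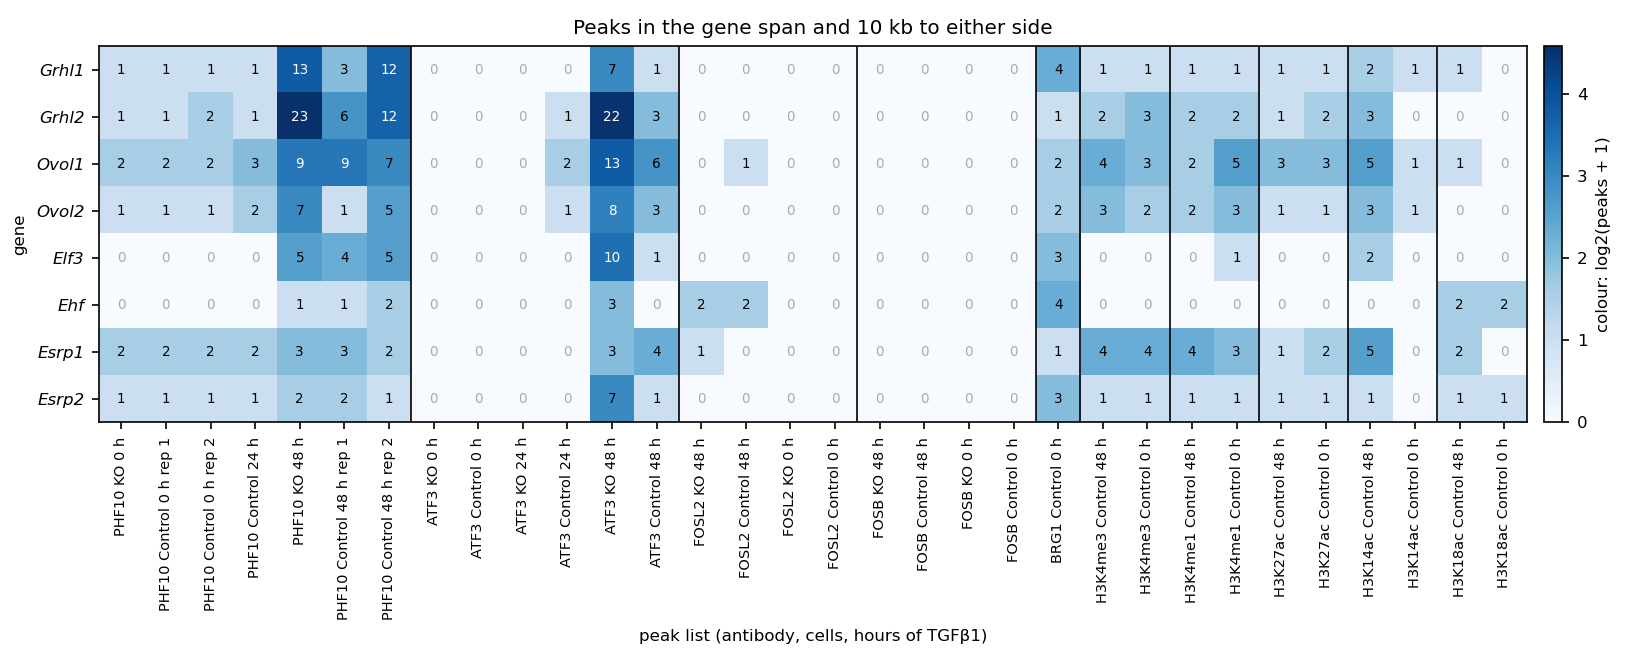
Number of peaks in the window of each gene (rows) in each of the 32 lists (columns; antibody, cells and hours of TGFβ1), with the count written in the cell and log2(peaks + 1) as colour. Elf3 and Ehf have 0 peaks in PHF10 at 0 and 24 h and in H3K4me3 and H3K27ac, and have 3 and 4 BRG1 peaks.

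H3K4me3 lists of control cells placed peaks in the windows of 6 of the 8 genes at 48 h and at 0 h, against 73.2% and 73.5% of all genes. These were the same 6 genes at both times. Grhl1 had 1 H3K4me3 peak at each time, over its lower-coordinate end, and Esrp2 had 1 at each time, at its higher-coordinate end. Grhl2 had 2 peaks at 48 h and 3 at 0 h, Ovol2 had 3 and 2, Ovol1 had 4 and 3, and Esrp1 had 4 at each time. More H3K4me3 peaks at 48 h were found at 2 of 8 genes, Ovol1 and Ovol2, against 7.47% of all genes, and fewer at 1 of 8, Grhl2, against 13.7%. Summed over the genes there were 15 H3K4me3 peaks at 48 h and 14 at 0 h, a log2 ratio of 0.10, with a counting interval of -1.05 to 1.26 and -0.09 for the whole lists. The intervals of such ratios come from the exact Clopper-Pearson interval at 95% and cover counting error only. H3K4me3 thus remained called at all 6 genes after 48 h of TGFβ1.

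Neighbouring genes reach into some of these windows. The Ovol1 window (chr19:5549137-5560575 for the span itself) holds the gene Ap5b1, and its H3K4me3 peak of highest fold at 0 h lay 18006 bases above the lower end of Ovol1, 300 bases from an end of Ap5b1. Another end of Ap5b1 lies inside the Ovol1 span, so the 0 h H3K4me3 peak chr19:5559868-5561321 covered ends of both genes and cannot be assigned to 1 of them. The Esrp1 window reaches an end of Dpy19l4, where an H3K4me3 peak lay 9560 bases below the Esrp1 span. Esrp1 had 3 further H3K4me3 peaks at 0 h, all within 1132 bases of its own higher end. Ncald, Rnpep and Nfatc3 also reach into the windows of Grhl2, Elf3 and Esrp2, and the windows of Grhl1, Ovol2 and Ehf hold no other protein-coding gene. In an alternative, peaks within 2 kb of the end of another gene, but not of the member's own end, were left out. This moved none of the 14 summed results beyond its replicate spread or counting interval. FOSL2 in KO over control cells nevertheless went to a log2 ratio of -0.58 (2 and 3 peaks).

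H3K27ac was present at the same 6 genes at 48 h and 0 h, where 59.2% and 66.6% of all genes had a peak. There were 8 H3K27ac peaks at 48 h and 10 at 0 h, a log2 ratio of -0.32 (interval -1.87 to 1.17), beside -0.36 for the whole lists. Grhl2 had 1 peak at 48 h and 2 at 0 h, and Esrp1 had 1 and 2, the peak missing at 48 h being the one 394 bases above the Esrp1 span. The remaining Esrp1 peak at 48 h was the one at the end of Dpy19l4. Fewer H3K27ac peaks at 48 h were thus found at 2 of 8 genes, against 26.7% of all genes.

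H3K4me1 was called at 6 of 8 genes at 48 h and 7 of 8 at 0 h, against 43.3% and 50.0% of all genes. The gene that differed was Elf3, a factor of secretory and barrier epithelia, with 1 H3K4me1 peak at 0 h and 0 at 48 h, a class that held 12.1% of all genes. That peak, chr1:135256899-135257137, lay inside the gene 1335 bases below its higher end. Ovol1 had 2 H3K4me1 peaks at 48 h and 5 at 0 h, and Ovol2 had 2 and 3, so that with Elf3 fewer peaks at 48 h were found at 3 of 8 genes, against 29.1% of all genes. Esrp1 had 4 and 3, the 1 of 8 genes with more peaks at 48 h, against 8.17%. The additional Esrp1 peak lay 57 bases from an end of Dpy19l4. In sum 12 peaks at 48 h stood against 16 at 0 h, a log2 ratio of -0.42 (interval -1.63 to 0.76), beside -0.65 for the lists and 0.42 with lists of equal length.

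H3K14ac showed many more peaks at 48 h than at 0 h, at these genes as in the whole list. It was called at 7 of 8 genes at 48 h, against 74.4% of all genes, and at 3 of 8 at 0 h, against 18%. Grhl1, Ovol1 and Ovol2 had 2, 5 and 3 peaks at 48 h and 1 each at 0 h. Grhl2, Elf3, Esrp1 and Esrp2 had 3, 2, 5 and 1 peaks at 48 h and 0 at 0 h, 4 of 8 genes where 56.4% of all genes were in that class. More peaks at 48 h were found at 7 of 8 genes, all but Ehf, against 68.5% of all genes. The summed counts of 21 and 3 gave a log2 ratio of 2.81 (interval 1.06 to 5.20), below the 3.35 of the whole lists. With both lists cut by significance to the length of the shorter, it was -1.58. H3K14ac is a mark that bromodomains of PBRM1 are known to bind, but no KO library of a histone mark was analysed here.

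H3K18ac was the one mark called at Ehf. It was called at 5 of 8 genes at 48 h and 2 of 8 at 0 h, against 45.1% and 24.3% of all genes. Ehf had 2 H3K18ac peaks at 48 h and 2 at 0 h, at different places. The 0 h peaks lay at chr2:103284839-103285311 and chr2:103295575-103295783, and the 48 h peaks at chr2:103301634-103302193 and chr2:103302604-103303179, close to the higher end of the gene. Their −log10 q was 3.71 and 1.47 at 0 h and 10.6 and 4.59 at 48 h. At a −log10 q of at least 5, Ehf kept 0 at 0 h and 1 at 48 h. Esrp2 had 1 peak at each time, and Grhl1, Ovol1 and Esrp1 had 1, 1 and 2 at 48 h and 0 at 0 h. Peaks at 48 h only were found at these 3 of 8 genes, against 24.6% of all genes, and the same 3 were those with more peaks, against 31.9%. Both Esrp1 peaks lay at an end of Dpy19l4, 0 and 1587 bases from it, and 9766 and 7691 bases below Esrp1. The summed counts were 7 at 48 h and 3 at 0 h, a log2 ratio of 1.22 (interval -0.91 to 3.81), beside 0.63 for the lists. With 50 kb to either side, H3K18ac was called at 7 of 8 genes at 48 h and 5 of 8 at 0 h, against 63.8% and 43.9% of all genes. Grhl1 and Ovol1 then had 1 peak each at 0 h.

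BRG1, profiled only in untreated control cells, was called in the windows of all 8 genes, where 56.7% of all genes had a peak. The 1 peak in the Esrp1 window overlapped an end of Dpy19l4, 9503 bases below Esrp1. The members' median was 2.5 peaks and that of all genes 1.0. Grhl1 and Ehf had 4 peaks each, Elf3 and Esrp2 3 each, Ovol1 and Ovol2 2 each, and Grhl2 and Esrp1 1 each. Elf3 and Ehf therefore carried BRG1 without H3K4me3, H3K27ac or PHF10 in their windows at that time. These BRG1 calls had a highest −log10 q of 2.48 at Elf3 and 2.81 at Ehf. At a −log10 q of at least 5, 1 of the 20 BRG1 peaks remained, at Grhl1, beside 1812 of 29215 in the whole list. At Elf3 one BRG1 peak covered the higher gene end (chr1:135258067-135259111), and the 2 others lay above the span, 1268 and 5542 bases beyond the nearer end of Rnpep. At Ehf 3 of the 4 lay inside the gene, the widest at chr2:103285006-103286898, overlapping a 0 h H3K18ac peak. Of the 20 BRG1 peaks, 6 overlapped H3K4me3 of untreated control cells (30.0%), against 24.4% of the whole BRG1 list, 6 overlapped H3K4me1 (30.0%, against 9.58%), and 5 overlapped PHF10 in each 0 h control library (against 15.9% and 19.8%). These are not separate features, since 13 of the 16 H3K4me1 peaks at 0 h themselves overlapped H3K4me3 (81.2%, against 86.3% of the H3K4me1 list).

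Without TGFβ1, PHF10 was at the same 6 genes in KO and control cells. Grhl1, Ovol1, Ovol2, Esrp1 and Esrp2 had 1, 2, 1, 2 and 1 peaks in KO cells and the same numbers in each control library. Grhl2 had 1 peak in KO cells and 1 and 2 in control cells. Elf3 and Ehf had 0 in the KO and in both control libraries. Of all genes, 52.4% had a peak in KO cells, and 48.2% and 59.1% in the control libraries. A peak gained or lost against both control libraries was found at 0 of 8 genes, where 1.06% of all genes gained one and 1.3% lost one. More peaks than in either control library were found at 0 of 8 (3.02% of all genes), and fewer than in either at 0 of 8 (2.69%). The log2 ratio of 8 peaks in KO over a mean of 8.5 in control cells was -0.09 (interval -1.51 to 1.20), beside -0.18 for the lists.

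All of these untreated PHF10 peaks lay on H3K4me3. In KO cells 8 of 8 peaks overlapped H3K4me3 of untreated control cells, and in control cells 8 of 8 and 9 of 9 did. In the whole lists the shares were 93.6% in KO cells and 86.2% and 90.5% in control cells. At Ovol1 the PHF10 peak next to Ap5b1 ranked in the top 0.426% of the KO list and the top 1.04% and 1.24% of the control lists by significance. The peak at the higher Ovol1 end, where another end of Ap5b1 also lies, ranked lower, in the top 53.6% in KO cells and 44.7% and 42.8% in control cells.

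After 24 h of TGFβ1, control PHF10 was called at the same 6 of 8 genes, against 71.3% of all genes. No gene of the 8 had a peak at 24 h and in neither 0 h library, a class with 10.8% of all genes. The 24 h library had 10 peaks, against 8 and 9 at 0 h, a log2 ratio of 0.23 (interval -1.05 to 1.44), beside 1.11 for the whole lists. More peaks than in either 0 h library were found at 2 of 8 genes, Ovol1 with 3 and Ovol2 with 2, against 38.0% of all genes. The additional Ovol2 peak, chr2:144301043-144301303, lay 3872 bases below the span, and overlapped H3K4me3, H3K4me1 and BRG1 peaks of untreated cells. All 10 peaks overlapped H3K4me3 of untreated control cells.

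After 48 h in control cells, PHF10 was called at all 8 genes in both libraries, against 75.0% and 83.8% of all genes. Numbers at 0, 24 and 48 h were 1 and 1, 1, and 3 and 12 at Grhl1, and 1 and 2, 1, and 6 and 12 at Grhl2. They were 2 and 2, 3, and 9 and 7 at Ovol1, and 1 and 1, 2, and 1 and 5 at Ovol2. Grhl1, Grhl2 and Ovol1 therefore had more peaks in both 48 h libraries than in either 0 h library, and Ovol2 in replicate 2 only. Elf3 had 4 and 5 and Ehf 1 and 2 at 48 h, against 0 in each library at 0 and 24 h. Esrp1 had 3 and 2 at 48 h and 2 and 2 at 0 h, and Esrp2 had 2 and 1 at 48 h and 1 and 1 at 0 h, so the splicing factors overlapped between the times. The 48 h calls had a highest −log10 q of 3.99 and 3.6 at Elf3 and 1.55 and 2.44 at Ehf. At a −log10 q of at least 5, PHF10 remained at 4 of 8 genes in each 48 h library, and at neither Elf3 nor Ehf. By the same filter the 24 h library kept 6 genes and the 0 h libraries 6 and 1. The whole lists then held 8220 and 13419 peaks at 48 h, 13140 at 24 h, and 8501 and 3451 at 0 h. Genes outside the 8 were not counted under this filter, so whether the 8 differ from them cannot be read from these counts.

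More peaks in both 48 h libraries than in either 0 h library were found at 5 of 8 genes, near the 52.1% of all genes, and fewer at 0 of 8, against 0.0503%. Peaks in both 48 h libraries and in neither 0 h library were found at 2 of 8, Elf3 and Ehf, against 14.5%. The summed counts were 29 and 46 at 48 h and 8 and 9 at 0 h. Their log2 ratio was 2.14 (interval 1.37 to 2.99), with an SD of 0.47 between replicates in log2 peak number, and 2.49 for the whole lists. With lists cut by significance to equal length, the ratio turned to -0.30. At Grhl1, Grhl2 and Ovol2 the 48 h libraries differed more from each other in peak number than replicate 1 did from 0 h.

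The added peaks lay away from H3K4me3. At 48 h 11 of 29 and 11 of 46 control PHF10 peaks overlapped H3K4me3 of untreated control cells, which is 37.9% and 23.9%, beside 46.0% and 25.7% of the whole lists. The number on H3K4me3 was thus 11 in each 48 h library and 8 and 9 in the 0 h libraries, and most of the increase lay off it. At Elf3 both 48 h libraries shared a peak over the higher gene end and one about 4770 bases below the span in replicate 1 (4731 in replicate 2). At Ehf the single peak of replicate 1, chr2:103284968-103285178, lay within an H3K18ac peak of untreated cells and overlapped the BRG1 peak there, and the 2 peaks of replicate 2 lay elsewhere.

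**Figure D2:**
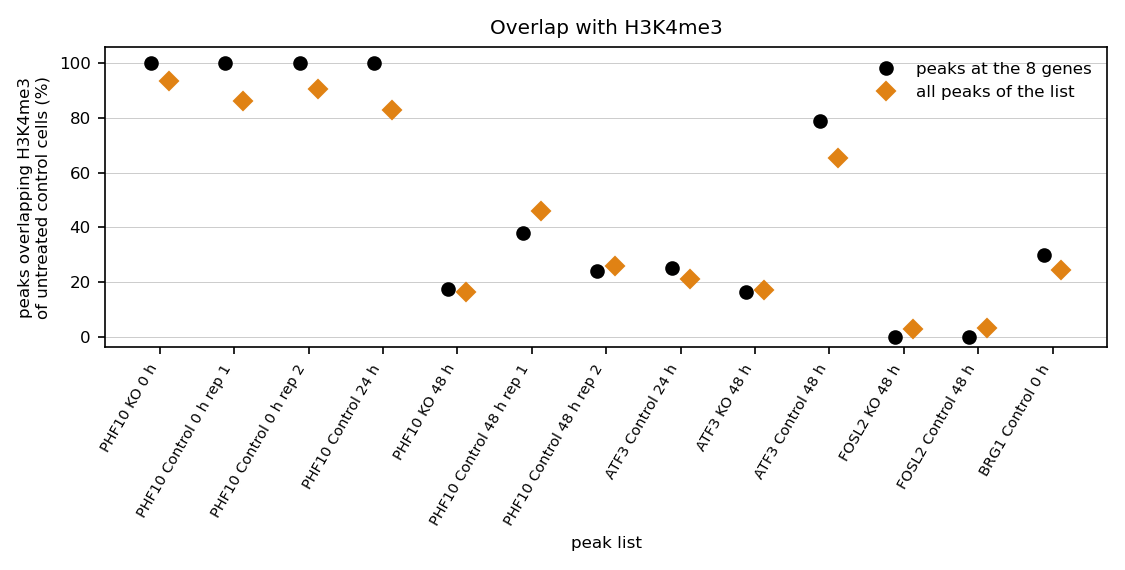
Share of peaks (percent, vertical axis) that overlap H3K4me3 of untreated control cells by at least 1 base, for the peaks at the 8 genes (black circles) and for the whole list (orange diamonds), in each list of PHF10, ATF3, FOSL2 and BRG1 with a peak at the 8 genes. PHF10 at 0 and 24 h sits at 100%, and PHF10 at 48 h between 17.5% and 37.9%.

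In KO cells at 48 h the PHF10 list was the longest of the series, and 63 of its peaks fell at the 8 genes, against 29 and 46 in control cells. All 8 genes had a peak, as did 87.9% of all genes. Grhl2 had 23 peaks in KO cells and 6 and 12 in control cells, Grhl1 had 13 against 3 and 12, and Ovol2 had 7 against 1 and 5. These 3 of 8 genes exceeded both control libraries, where 57.5% of all genes did. Ovol1 had 9 against 9 and 7, Elf3 5 against 4 and 5, Ehf 1 against 1 and 2, Esrp1 3 against 3 and 2, and Esrp2 2 against 2 and 1, so that KO lay within or at the edge of the control range. No gene of the 8 had fewer peaks in KO than in both control libraries, against 2.14% of all genes. The log2 ratio of KO over control was 0.75 (interval 0.24 to 1.25), smaller than the 1.12 of the whole lists, and the control replicates differed with an SD of 0.47. With lists of equal length it turned to -0.64.

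At Elf3 the 5 PHF10 peaks of KO cells at 48 h covered 41.4% of the window, against 4.97% and 24.6% in control cells, and 1 KO peak of 5182 bases ran from 291 bases inside the lower gene end to beyond the higher end. At Ovol1 the covered share was 66.1% in KO cells and 30.4% and 47.8% in control cells, and at Esrp2 26.0% against 12.2% and 21.8%. At Ehf it was 0.376% in KO cells and 0.353% and 0.861% in control cells, with the KO peak at another place, 3499 bases above the span. Covered length was higher in KO than in both control libraries at 7 of the 8 genes, all but Ehf, near the 82.1% of all genes, and lower than in both at 0 of 8, against 0.877%. The median peak of the whole list was 571 bases long in KO cells, against 492 and 497 in control cells. Of the 63 KO peaks 11 overlapped H3K4me3 of untreated control cells (17.5%, against 16.3% of the list), the same number as in each control library. Within KO cells, 48 h against 0 h gave 63 and 8 peaks, a log2 ratio of 2.98 (interval 1.91 to 4.25), beside 3.79 for the lists and -0.42 with lists of equal length, and all 8 genes had more peaks at 48 h, as did 85.4% of all genes. Elf3 and Ehf, 2 of 8 genes, had KO peaks at 48 h only, against 35.6%. At a −log10 q of at least 5, 1 of these peaks remained at Elf3 and 0 at Ehf.

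**Figure D3:**
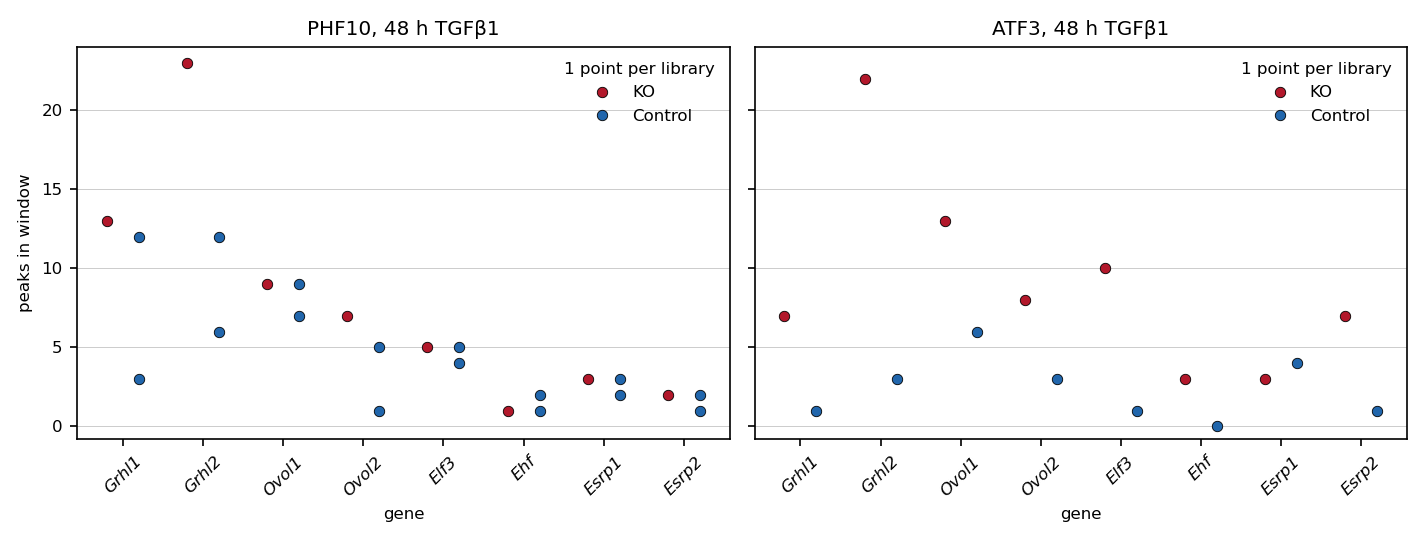
Number of PHF10 peaks (left) and ATF3 peaks (right) in the window of each gene after 48 h of TGFβ1, 1 point per library, KO in red and control in blue. For PHF10 the KO library exceeds both control libraries at Grhl1, Grhl2 and Ovol2, and for ATF3 the KO library exceeds the control library at 7 genes and is lower at Esrp1.

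ATF3, a stress-induced bZIP factor and a known effector of TGFβ signalling, had no peak at any of the 8 genes without TGFβ1. The 0 h lists were nearly empty, with 25 peaks in KO and 20 in control cells, and 0.064% and 0.0594% of all genes had one. At 24 h the KO list had 0 peaks at the 8 genes and 69 in all (0.114% of all genes had one), and the control list had 4 and 2004. In control cells the 24 h peaks were at Grhl2 (1), Ovol1 (2) and Ovol2 (1). Peaks in control but not KO cells at 24 h were therefore found at 3 of 8 genes, against 7.0% of all genes. In that class were also 1 of 14 other epithelial factors, 2 of 24 epithelial target genes (Tjp1 and Cldn4), 0 of 6 opposing factors of the Snail, Zeb and Twist families, and 3 of 10 splicing genes (Ctnnd1 and Scrib among them). The counting interval of 0 against 4 peaks reaches a KO over control ratio of 1.51, and the log2 ratio of the whole lists was -4.86, so 4 peaks are too few to show a difference at these genes. The 4 control peaks had a highest −log10 q of 3.21. At a −log10 q of at least 5, 0 of them remained, beside 176 of the 2004 in the control list.

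The 24 h ATF3 sites differed in kind. The Grhl2 peak, chr15:37233960-37234627, lay 1139 bases inside the lower gene end, on the H3K4me3 and PHF10 peaks found there in untreated cells. One Ovol1 peak, chr19:5544026-5544326, lay 4811 bases below the span and overlapped BRG1 and H3K4me1 peaks of untreated cells, and the other lay inside the gene. The Ovol2 peak was inside the gene, 11779 bases from its higher end, and was the one of the 4 that overlapped no ATF3 peak at 48 h in KO or control cells. Of the 4 peaks 1 overlapped H3K4me3 of untreated control cells, beside 21.2% of the list.

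At 48 h ATF3 was called at 8 of 8 genes in KO cells and 7 of 8 in control cells, against 84.6% and 76.4% of all genes. Grhl2 had 22 peaks in KO and 3 in control cells, Grhl1 7 and 1, Ovol1 13 and 6, Ovol2 8 and 3, Elf3 10 and 1, Ehf 3 and 0, and Esrp2 7 and 1. Esrp1, with 3 in KO and 4 in control cells, was the exception. More peaks in KO cells were thus found at 7 of 8 genes, against 72.2% of all genes, fewer at 1 of 8, against 4.68%, and peaks in KO cells only at 1 of 8, Ehf, against 9.91%. At a −log10 q of at least 5, the whole lists held 44878 peaks in KO and 41820 in control cells. Grhl1, Grhl2, Ovol1, Elf3 and Esrp2 then had more peaks in KO cells, and the share of all genes was not counted under this filter. Ovol2 then had 2 in KO and 3 in control cells, Esrp1 1 and 4, and Ehf 0 in each. Over all deposited peaks, the sums of 73 and 19 gave a log2 ratio of 1.94 (interval 1.20 to 2.75), beside 1.66 for the whole lists. With lists of equal length it was 0.40. Among peaks with a fold of at least 5 it turned to -1.68, but fold is not on 1 scale in these lists, whose median was 3.52 in KO and 6.75 in control cells. In control cells the sum was 0, 4 and 19 at 0, 24 and 48 h, and 48 h over 24 h gave 2.25 (interval 0.66 to 4.26), under the 4.51 of the lists and -0.42 with lists of equal length. At 48 h and not 24 h, control ATF3 was at 4 of 8 genes (69.8% of all genes), and more peaks were found at 7 of 8 (75.3%).

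The KO and control ATF3 peaks of 48 h differed in their overlap with H3K4me3, at these genes as in the whole lists. In KO cells 12 of 73 overlapped H3K4me3 of untreated control cells (16.4%, against 17.0% of the list), and in control cells 15 of 19 did (78.9%, against 65.5%). At Elf3 the control peak, chr1:135256823-135257207, sat where H3K4me1 was at 0 h and H3K14ac at 48 h, and none of the 10 KO peaks overlapped it. At Esrp1 the control peaks were on the 3 H3K4me3 sites around the higher gene end and on the one at Dpy19l4, and KO cells lacked the peak 1063 bases below that end. At Ehf the 3 KO peaks lay inside the gene, and chr2:103286617-103286890 fell within the widest BRG1 peak of untreated cells.

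ATF3, PHF10 and H3K14ac shared sites at 48 h. In KO cells 59 of 73 ATF3 peaks overlapped KO PHF10 peaks of the same time (80.8%, against 80.4% of the list). In control cells 16 and 19 of 19 ATF3 peaks overlapped the 2 PHF10 libraries (84.2% and 100.0%, against 58.8% and 90.2%), and 18 of 19 overlapped H3K14ac (94.7%, against 67.6%). Conversely 19 of 21 H3K14ac peaks at these genes overlapped control ATF3 (90.5%, against 88.3%).

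**Figure D4:**
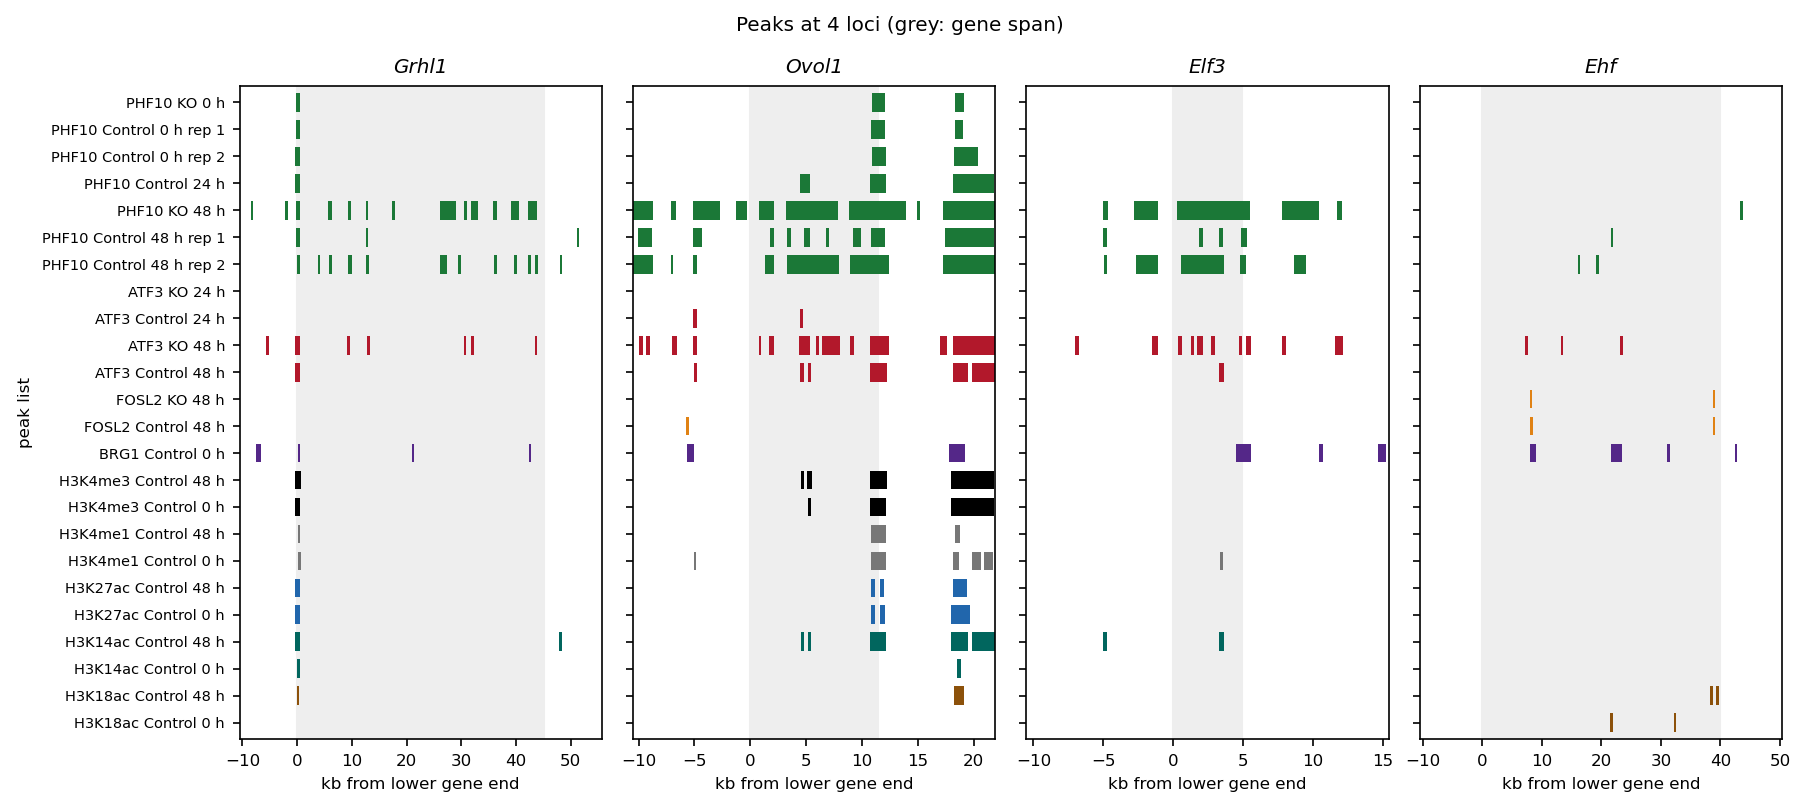
Peaks (coloured bars) of each list in the windows of Grhl1, Ovol1, Elf3 and Ehf, in kb from the lower-coordinate gene end, with the gene span in grey. Bars narrower than the line limit are widened to stay visible. Elf3 and Ehf lack H3K4me3 and H3K27ac, and PHF10 appears at them at 48 h, in control cells with no peak of a −log10 q of at least 5.

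FOSL2, an AP-1 subunit, had no peak at the 8 genes at 0 h, where 0.00457% of all genes had one in KO and 0.00914% in control cells, and 3 in each 48 h list. In KO cells these were 2 at Ehf and 1 at Esrp1, and in control cells 2 at Ehf and 1 at Ovol1, 2 of 8 genes in each list, against 17.2% and 9.22% of all genes. Presence in KO cells only was found at 1 of 8 genes (8.64% of all genes) and presence in control cells only at 1 of 8 (0.603%). The log2 ratio was 0.00 (interval -2.90 to 2.90), beside 1.1 for the lists. Of the opposing factors, 3 of 6 had a FOSL2 peak in KO cells only, Snai1 and Twist2 among them, as did Klf4, a further epithelial factor, and Tjp1. None of the 3 peaks in either list overlapped H3K4me3 of untreated control cells, beside 2.66% of the KO list and 3.05% of the control list. With 50 kb to either side, 5 of 8 genes had a FOSL2 peak in KO and 3 of 8 in control cells, against 35.2% and 20.2% of all genes. Ovol1 then had 1 peak in each list.

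Both Ehf sites were found in KO and control cells. One, chr2:103271424-103271816 in KO and chr2:103271483-103271818 in control cells, overlapped a BRG1 peak of untreated cells and ranked in the top 19.2% of the KO list and the top 49.8% of the control list. The other, chr2:103302198-103302573 in KO and chr2:103302198-103302469 in control cells, lay between the 2 H3K18ac peaks found at 48 h, and ranked in the top 50.7% of the KO list and the top 34.8% of the control list. The control-only Ovol1 site, chr19:5543410-5543661, lay 5476 bases below the span and overlapped the same BRG1 peak as the 24 h ATF3 site there. The KO-only Esrp1 site, chr4:11322821-11323071, lay 8862 bases below Esrp1 and 683 bases from an end of Dpy19l4. FOSB, a further AP-1 subunit, had no peak at any of the 8 genes in its 4 lists, which held 2 to 188 peaks in all. At 48 h 0.0959% of all genes had one in KO and 0.717% in control cells, and at 0 h 0.00914% in each.

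**Figure D5:**
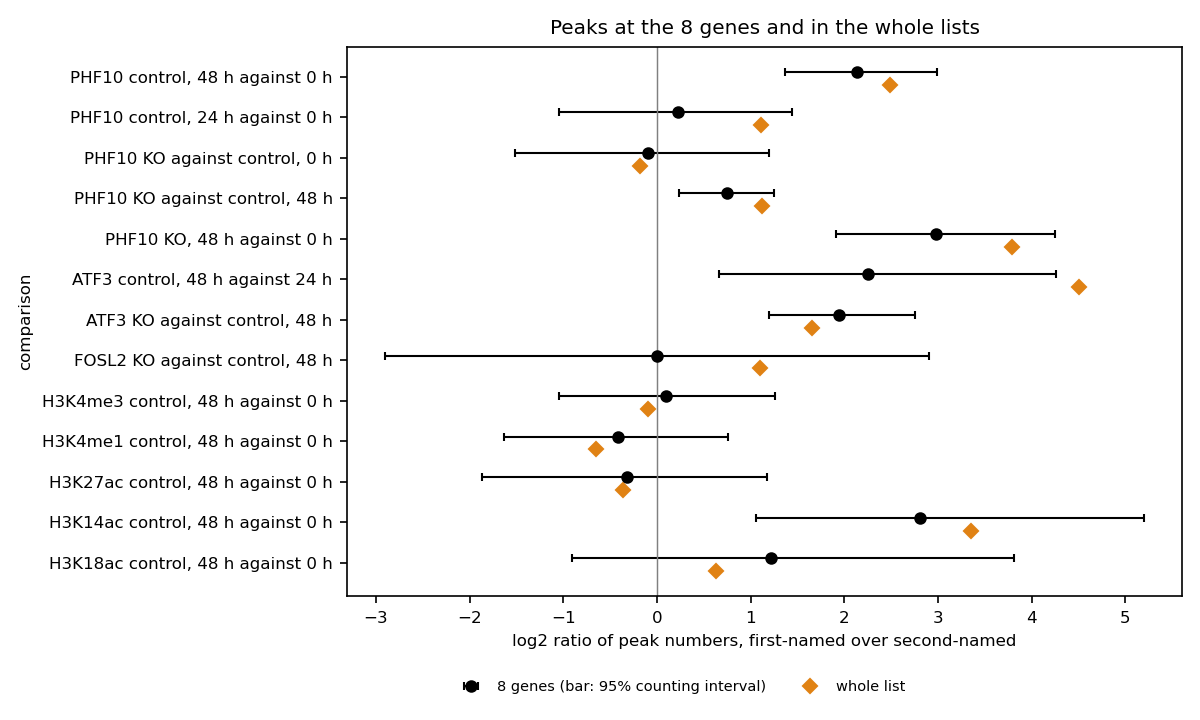
Log2 ratio of the number of peaks at the 8 genes (black circles, with a 95% counting interval) and of the whole lists (orange diamonds), for the 13 comparisons with a peak in each arm. For PHF10 at 48 h the KO over control ratio is 0.75 at the 8 genes and 1.12 for the lists, and for ATF3 at 48 h it is 1.94 and 1.66.

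The 8 genes can be ordered by how alike they were in presence of a peak over the 32 lists, which share cells and differ in length. Grhl2 and Ovol2 differed in 1 list, and the pairs among Grhl1, Grhl2, Ovol1, Ovol2, Esrp1 and Esrp2 differed in 1 to 4. Elf3 differed from these 6 in 10 to 13 lists and Ehf in 14 to 18, and Elf3 and Ehf differed from each other in 7. Peaks were present in 8 of 32 lists at Elf3 and 9 at Ehf, against 18 to 21 at the others. With 50 kb to either side Elf3 had a peak in 19 lists, including H3K4me3 with 1 peak at each time, H3K27ac with 1 at 48 h and 2 at 0 h, and PHF10 at 0 h with 1 in KO and 1 in each control library, while Ehf stayed at 9. The distance chosen therefore decided the class of Elf3 and not that of Ehf.

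Among the other epithelial, opposing and splicing genes, the closest in presence to Grhl1 were Llgl2, a polarity gene, and Tfap2a, an epithelial transcription factor, each in 0 lists different. The presence pattern of Grhl1 was also that of 669 other genes. Klf4 and Snai1 matched Esrp1 in every list, as did 114 genes other than Esrp1. Ovol1 and Ovol2 were each 1 list from Scrib and 2 from Llgl2, Esrp2 was 1 from Arhgef11 and Crb3, and Grhl2 was 2 from Cldn7 and Crb3. Elf3 was closest to Elf5, an ETS factor of the mammary gland, at 2 lists, and then to Grhl3 at 4. Ehf was closest to Trp63 at 4 lists and Elf5 at 5, and no other gene had its pattern.

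The lists of related genes give a scale for the 2 main 48 h results. More PHF10 peaks in both 48 h than in either 0 h control library were found at 12 of 14 other epithelial factors, 18 of 24 epithelial targets, 6 of 6 opposing factors and 10 of 10 splicing genes, beside 5 of 8 here and 52.1% of all genes. More ATF3 peaks in KO than in control cells at 48 h were found at 14 of 14, 23 of 24, 3 of 6 and 10 of 10, beside 7 of 8 here and 72.2% of all genes. Peaks of ATF3 in KO cells only were found at Elf5 and Cd44 among these lists, and in control cells only at Snai2. H3K4me3 at 0 h was present at 12 of 14 other epithelial factors, 24 of 24 targets, 6 of 6 opposing factors and 10 of 10 splicing genes.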

How the data were processed

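ChIP-seq was measured in 47 samples: 32 with a peak list and 15 inputs without one. Per the submitters' processing notes, the build was mm10 and the tools were deepTools 3.5.1, Partek 11.0.24.0325, Bowtie2 2.3.3, fastp 0.19.5 and MACS3 3.0.0a7. PHF10, BRG1 and ATF3 chromatin was crosslinked with DSG and formaldehyde and the rest with formaldehyde alone, per the labels' protocols. Each list holds the authors' pileup signal, −log10 p-value, fold enrichment over input (a ratio) and −log10 q-value per peak, per the file headers. The 8 PHF10 and BRG1 lists carry no summits. Their lowest −log10 q was 1.0, and that of the other 24 was 1.3. Depth is unknown.

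Peaks were counted by at least 1 base of overlap with the gene span of RefSeq GRCm38.p6 and 10 kb to either side, over 21887 genes; 34 peaks off the assembled chromosomes were left out. The gene table gives no strand, so exons, introns and UTRs were not assigned. Intervals are exact Clopper-Pearson intervals at 95%. Counting was checked on simulated data. The members and gene lists were chosen with earlier results of these data known. Other genes are named if they lie in a member's window, if they are on these lists and differ between arms (at most 4 per comparison, by highest fold), or if they are among the 2 closest to a member in presence. One listed symbol, Qki, found no match. Python 3.11.15, numpy 2.4.6, pandas 2.3.3, scipy 1.17.1 and matplotlib 3.10.9 were used.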

Additional observations from a re-analysis of the deposited data

Results flagged for a closer look

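The difference between KO and control cells in ATF3 peak number had opposite signs at 48 h and at 24 h. At Grhl2 it was 19 at 48 h and -1 at 24 h, at Ovol1 7 and -2, and at Ovol2 5 and -1. Over the 8 genes it was 54 at 48 h and -4 at 24 h. Each arm had 1 library, and the difference between the times was not tested. The whole lists moved the same way, with a log2 ratio of KO over control of 1.66 at 48 h and -4.86 at 24 h. At a −log10 q of at least 5, 0 of the 4 control ATF3 peaks of 24 h remained at the 8 genes.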

How the results depend on the processing

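Each of the 14 summed results was recomputed under 110 alternatives in all, of which 12 changed sign and were classed as reversed. Of the rest, 88 gave a value within the replicate SD or, without replicates, the counting interval, and 10 moved beyond it. Some reversed values also lay within the counting interval, such as 0.42 for H3K4me1 and -0.13 for H3K4me3. Values within it still changed, such as FOSL2 in KO over control cells, which was -1.58 with lists of equal length. Cutting lists to the length of the shortest reversed the log2 ratio of control PHF10 at 48 h (-0.30) and 24 h (-0.19) against 0 h, KO over control PHF10 at 48 h (-0.64), KO PHF10 at 48 against 0 h (-0.42), control ATF3 at 48 against 24 h (-0.42), H3K4me1 (0.42) and H3K14ac (-1.58), and moved KO over control ATF3 at 48 h to 0.40. A −log10 q of at least 5 moved control PHF10 to 0.70 at 48 h and 1.0 at 24 h, where the 0 h libraries held 7 and 1 peaks, KO PHF10 at 48 against 0 h to 1.17 and KO over control ATF3 at 48 h to 0.40. A fold of at least 5, a value that is not on 1 scale across lists, gave -2.0 for control PHF10 at 24 h, -0.42 for KO over control PHF10 at 0 h, -1.68 for KO over control ATF3 at 48 h and -0.13 for H3K4me3. Peaks within 2 kb of a gene end gave 1.05 and -0.12 for control PHF10 at 48 and 24 h, 0.25 for KO over control at 48 h and 1.42 for KO at 48 against 0 h. A flank of 50 kb gave 0.57 for control PHF10 at 24 h, and merging peaks gave -0.14 for H3K4me3. The cause of these changes was not tested.

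Without 1 PHF10 control library at a time, the ratio was 1.77 to 2.44 for 48 against 0 h, 0.15 to 0.32 for 24 against 0 h, -0.17 to 0.0 for KO over control at 0 h and 0.45 to 1.12 at 48 h. A −log10 q of at least 1.3, chosen after seeing the data, moved none of the 14 beyond its spread or interval (2.08 for control PHF10 at 48 against 0 h and 0.81 for KO over control at 48 h). Some filters left an arm with no peak and so gave no value. No paired analysis was possible because the results come from no test. Depth was unknown, and 1 library per arm gives no spread.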
